A study of Mus musculus with 15 samples.

Results

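The transforming growth factor beta (TGF-β) pathway was described through 39 genes of the 27179 in the count table, matched by Entrez gene ID to a list of mouse symbols. The list held 25 components (ligands, proteins that hold or process them, receptors, Smads and adaptors), 12 inhibitors of the pathway and 2 further target genes, Tgfbi and Gpr83. Messenger RNA was measured by bulk sequencing in 15 libraries of mouse CD4 T cells, with 5 libraries each of T follicular helper (Tfh), Th17 and Th1 cells. All 3 conditions started from naive CD4 cells of the genotype B6.Cg-Ifngtm3.1Lky-Il17atm1.1Lky, which carries altered Ifng and Il17a alleles. The cells were stimulated for 3.5 days with antibodies to CD3 and CD28 bound to the plate and sorted by flow cytometry. Sort gates appear in the design text of the series: Tfh cells were CXCR5+ without IL-17A, and Th1 cells were positive for IFNg. The sources used here state neither the gate of the Th17 cells nor the cytokines of each culture, so it is not known here which cultures received TGF-β; the age and sex of the mice are likewise not stated. The title of the series names TGF-β as a signal that sets Tfh against Th17 fate.

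TGF-β is secreted in a latent form, held by its own propeptide and by latent TGF-β binding proteins or GARP, and must be released before it can act. The released dimer brings type II and type I receptor kinases together, the type I receptor phosphorylates Smad2 and Smad3, and these join Smad4 and act on genes in the nucleus. Activins and bone morphogenetic proteins use sister receptors, the bone morphogenetic proteins with Smad1 and Smad5. Inhibitory Smads, ubiquitin ligases, nuclear corepressors and membrane proteins hold the signal back, and several of them (Smad7, Skil, Ldlrad4, Pmepa1) are themselves switched on by TGF-β. In CD4 T cells the pathway is known for its part in Th17 and regulatory T cell differentiation and for holding back the Th1 programme.

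Library totals ran from 4.87 M counts (Tfh replicate 1) to 25.2 M (Th1 replicate 3), with a median of 10.5 M (M for a 1 followed by 6 zeros). Levels are given as CPM, that is, counts in each 1 M of a library's TMM-normalised size, and errors of means are SD over the 5 libraries of a condition. Libraries of the same condition differed in base composition: across genes, the rank correlation of a library's deviation from its condition mean with transcript GC content ran from -0.484 to 0.592 in Tfh, from -0.532 to 0.718 in Th17 and from -0.669 to 0.718 in Th1. The largest positive values were those of Tfh replicate 4 at 0.592, Th17 replicate 4 at 0.718, and Th1 replicates 3 and 4 at 0.708 and 0.718, and the lowest was -0.669 in Th1 replicate 1. The 10 CD4 T cell markers each exceeded 10 CPM on average in every condition, with summed levels of 8407 to 11064 CPM in Tfh, 7325 to 8527 in Th17 and 4712 to 6203 in Th1. Among 7 B cell markers Pax5 was at 0 in all 15 libraries and Ms4a1 was at 0 in Tfh and Th17, and the summed level stayed at or under 3.58 CPM in Tfh and 3.74 in Th17. That sum was 13.9 to 25.0 CPM in Th1, of which Ebf1 made up 17.4 on average. The 12 myeloid and platelet markers summed to at most 4.45, 2.46 and 2.59 CPM in Tfh, Th17 and Th1 libraries, with Csf3r, S100a8, Pf4 and Ppbp at 0 throughout, and 5 natural killer cell markers to at most 1.70, 4.67 and 2.13. Of 9 fibroblast and endothelial markers Col3a1 and Pdgfra were at 0 in all libraries, and the list's sum of 104.6 to 166 CPM in Tfh, 68.5 to 109 in Th17 and 11.2 to 22.4 in Th1 was nearly all Pecam1, which T cells also express. The 2 CD8 T cell markers summed to 5.22 to 11.3 CPM in Tfh libraries, 6.19 to 16 in Th17 libraries and 7.29 to 26.1 in Th1 libraries: Cd8a, at 0 in Tfh, averaged 0.259 CPM in Th17 and 5.52 in Th1 and was called lower than in Th1 in both (edgeR adjusted p = 8.41e-05 for Tfh and 0.00124 for Th17), and Cd8b1, at 7.34, 10.3 and 11.5 CPM on average, passed no comparison. The part of these markers in the results was not tested. In bulk samples, fewer cells that use a gene and less RNA per cell cannot be told apart.

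The promoters of 4 genes on which the results turn are shown from 250 bases before to 50 after the transcription start: the type II receptors Acvr2a and Tgfbr2, the signal carrier Smad3 and the target Tgfbi. They come from RefSeq on GRCm38.p6, lie at chr2:48813859-48814158 (plus strand), chr9:116175314-116175613 (minus strand), chr9:63757945-63758244 (minus strand) and chr13:56609336-56609635 (plus strand), and are written 5′ to 3′. Capitals mark AGAC on either strand (read as GTCT on the other), the 4-base box that Smad3 and Smad4 bind.
Acvr2a: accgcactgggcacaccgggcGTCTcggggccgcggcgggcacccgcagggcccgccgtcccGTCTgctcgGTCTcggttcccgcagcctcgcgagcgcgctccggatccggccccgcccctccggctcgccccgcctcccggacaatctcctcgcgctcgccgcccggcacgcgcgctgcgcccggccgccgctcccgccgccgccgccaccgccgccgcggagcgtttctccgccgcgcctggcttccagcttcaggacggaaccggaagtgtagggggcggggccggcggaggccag
Tgfbr2: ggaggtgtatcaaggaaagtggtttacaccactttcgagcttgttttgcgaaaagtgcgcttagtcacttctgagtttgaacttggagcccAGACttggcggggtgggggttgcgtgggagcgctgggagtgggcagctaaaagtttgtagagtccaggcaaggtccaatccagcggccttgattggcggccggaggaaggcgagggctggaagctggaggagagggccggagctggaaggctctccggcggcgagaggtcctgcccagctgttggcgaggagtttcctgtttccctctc
Smad3: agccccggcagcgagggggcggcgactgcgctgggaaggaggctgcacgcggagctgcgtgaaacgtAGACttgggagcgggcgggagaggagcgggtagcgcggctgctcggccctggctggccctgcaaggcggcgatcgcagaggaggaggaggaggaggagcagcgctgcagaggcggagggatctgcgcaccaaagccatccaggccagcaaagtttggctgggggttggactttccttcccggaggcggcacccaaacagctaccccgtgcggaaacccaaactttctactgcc
Tgfbi: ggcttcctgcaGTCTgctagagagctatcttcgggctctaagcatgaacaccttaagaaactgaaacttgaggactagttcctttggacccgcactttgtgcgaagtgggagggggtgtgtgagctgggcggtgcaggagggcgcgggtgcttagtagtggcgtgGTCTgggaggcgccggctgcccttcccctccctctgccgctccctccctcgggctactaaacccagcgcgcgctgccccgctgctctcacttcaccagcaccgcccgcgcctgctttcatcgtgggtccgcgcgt
The box occurred 3 times in the Acvr2a window, once each in those of Tgfbr2 and Smad3, and 2 times in that of Tgfbi. A box this short is common: 33 of the 40 promoters in the table of 28 member genes held it, or 82.5%, as did 88% of all 32851 promoters. The longer CAGACA, which contains the box, was present in 11 of the 40, or 27.5% (genes among them Tgfbr1, Tgif1 and Gpr83), and in 21% of all promoters. The double box GTCTAGAC, which holds it on both strands, was present in 1 of the 40, that of Smad6, and in 0.213% of all promoters, and the AP-1 motif TGANTCA in 1, that of Ltbp3, and in 7.81% of all. Neither CAGACA nor TGANTCA occurred in the 4 windows shown. Only 28 of the 39 members had a window, so a gene not named here was not necessarily searched. These matches describe the letters of the windows and were not tested as sites.

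Of the 39 genes, 36 passed the filter on low counts and were tested. The commonest order of the condition means was Tfh highest, Th17 intermediate and Th1 lowest. The means of the receptor genes Tgfbr2 and Tgfbr1, the signal carriers Smad2 and Smad3 and the inhibitor Smad7 all followed it. Of the 36 tested, 18 (50%) had their means in that order, against 27.3% of all 12591 genes tested. Between Tfh and Th17, 8 were called higher in Tfh and 3 lower at an edgeR adjusted p under 0.05, or 30.6% of the 36, where 16.8% of all genes tested were called. Between Tfh and Th1, 20 were higher in Tfh and 4 lower, or 66.7%, where 49.3% of all genes were called. Between Th17 and Th1, 17 were higher in Th17 and 2 lower, or 52.8%, where 36.9% of all genes were called. Among the genes named above, Tgfbr2 and Smad7 were called in all 3 comparisons. Tgfbr1, Smad2 and Smad3 were called against Th1 but not between Tfh and Th17 (edgeR adjusted p = 0.113, 0.622 and 0.109). The median log2 fold change of the 36 was 0.16, 0.80 and 0.68 in these 3 comparisons, and that of all genes tested was -0.01, -0.01 and 0.03. The members were chosen with earlier results of these data known, so their shares beside those of all genes are descriptive only. The comparisons share samples (Tfh libraries serve in the first pair, Th1 libraries in the last pair), so their values are set side by side and do not support each other. The labels do not state that the 5 libraries of a condition had separate mice or cultures as their source, and the p-values reflect only the spread among libraries, part or all of which may be technical.

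**Figure D1:**
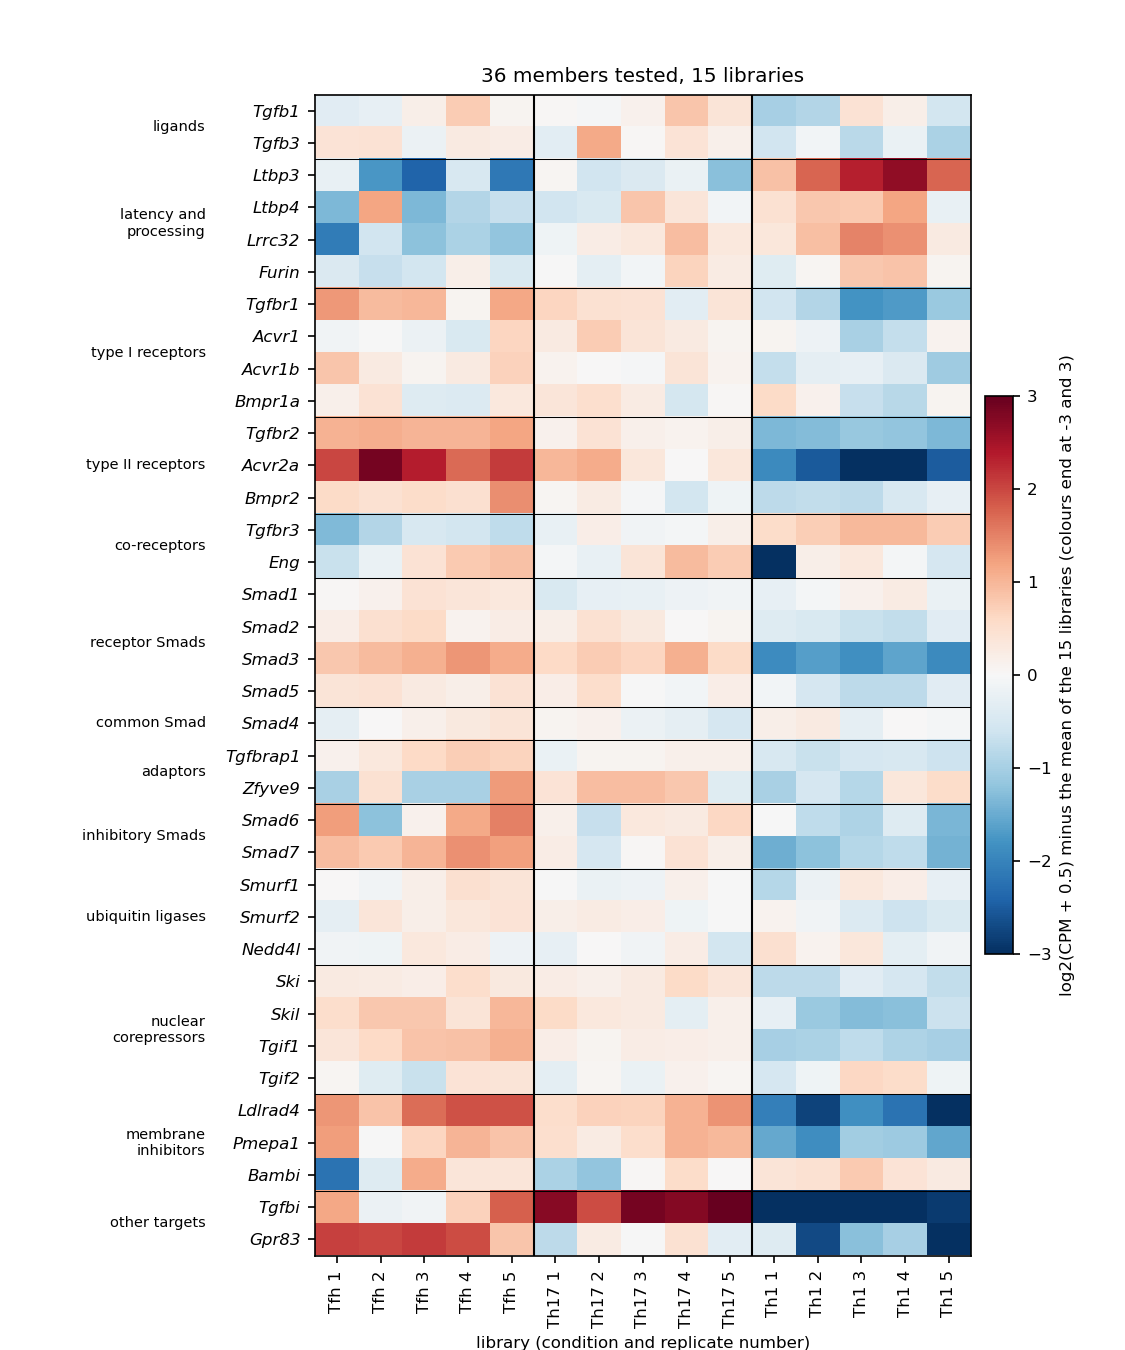
Levels of the 36 members tested (rows, grouped by role) in the 15 libraries (columns, Tfh, Th17 and Th1), as log2(CPM + 0.5) minus the mean of the 15 libraries. Acvr2a, Tgfbr2, Smad3, Smad7, Ldlrad4 and Pmepa1 lie above their mean in most Tfh and Th17 libraries and below it in every Th1 library, while Tgfbr3, Ltbp3 and Lrrc32 lie above it in every Th1 library.

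Calls were split by class as follows. Of the 22 components tested, 5 were higher and 2 lower in Tfh than in Th17, 10 higher and 4 lower in Tfh than in Th1, and 9 higher and 2 lower in Th17 than in Th1. Of the 12 inhibitors, 2, 8 and 6 were higher in these comparisons and none was called lower. In the direction higher in the first condition named, 6.8%, 24.1% and 19% of all genes were called, and in the other direction 9.98%, 25.2% and 17.8%. Both target genes were called in all 3 comparisons, Tgfbi with its maximum in Th17 and Gpr83 with its maximum in Tfh. Called members whose libraries did not overlap between the conditions numbered 10 for Tfh against Th17, 20 for Tfh against Th1 and 15 for Th17 against Th1, where 14.5%, 34.3% and 28.8% of all genes did not overlap and 12.4%, 33.8% and 27% were also called.

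Of 3 ligand genes 2 were tested, and 1 of them, Tgfb3, was called. Called shares were 0%, 50% and 50% for Tfh against Th17, Tfh against Th1 and Th17 against Th1. Those of all genes were 16.8%, 49.3% and 36.9%. Tgfb1, the main TGF-β isoform of lymphocytes, had 302, 326, 438, 656 and 405 CPM in Tfh replicates 1 to 5, 397, 377, 420, 682 and 505 in Th17, and 192, 208, 522, 435 and 264 in Th1. The 3 ranges overlapped, and no comparison passed the test: the log2 difference was -0.16 for Tfh against Th17 (95% interval -0.73 to 0.41), 0.39 for Tfh against Th1 (-0.18 to 0.96) and 0.55 for Th17 against Th1 (-0.02 to 1.12). The highest Tgfb1 value of each condition lay in Tfh 4, Th17 4 and Th1 3, libraries with large positive GC correlations, and with a correction for GC content the Th17 against Th1 difference of 0.52 was called at an edgeR adjusted p of 0.041 (0.000477 to 0.335 over all 25 alternatives). Without Th1 replicate 3 it was 0.77 (adjusted p = 0.0273). A block on replicate number also gave a call for Th17 against Th1 (0.62, edgeR adjusted p = 0.00278). For Tfh against Th1 the block gave 0.43, also called (edgeR adjusted p = 0.0231; 0.00592 to 0.603 over 25 alternatives). The part of base composition in the Tgfb1 values was not tested. Tgfb3, a second isoform, had 16.8, 17.0, 10.9, 15.2 and 14.7 CPM in Tfh, 9.95, 27.8, 12.8, 16.8 and 13.9 in Th17, and 8.27, 11.7, 6.91, 10.7 and 6.22 in Th1. It was called higher in Tfh than in Th1 (log2 0.77, SE 0.27, adjusted p = 0.0238 by edgeR) and in Th17 than in Th1 (0.90, SE 0.27, 0.0129), with overlapping libraries in both. Leaving out Th1 replicate 3 or 5 or Tfh replicate 2 ended the Tfh against Th1 call (adjusted p 0.0573 to 0.0748), and leaving out Th17 replicate 2, which held 27.8 CPM, ended the Th17 against Th1 call (0.055). Tgfb2 was not tested, with at most 0.565 CPM in any library.

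Of 5 genes for latency and processing 4 were tested: 1 was lower in Tfh than in Th17, 3 lower in Tfh than in Th1 and 1 lower in Th17 than in Th1, and none was called higher. These are 25%, 75% and 25% of only 4 genes, where 16.8%, 49.3% and 36.9% of all genes were called. Lrrc32 encodes GARP, which tethers latent TGF-β to the surface of regulatory T cells and platelets. It had 0.773, 3.11, 1.80, 2.29 and 1.88 CPM in Tfh, 4.45, 5.82, 6.20, 9.80 and 6.27 in Th17, and 6.31, 9.57, 14.8, 13.6 and 6.05 in Th1. All Tfh libraries lay below all Th17 and all Th1 libraries, while Th17 and Th1 overlapped. Lrrc32 was lower in Tfh than in Th17 (log2 -1.70, SE 0.36, edgeR adjusted p = 0.00298) and than in Th1 (-2.34, SE 0.36, 3.25e-05), and the Th17 against Th1 difference of -0.63 did not pass (0.154). Ltbp3, a latent TGF-β binding protein, had 1.74, 0.283, 0, 1.39 and 0.0988 CPM in Tfh, 2.22, 1.27, 1.44, 1.79 and 0.610 in Th17, and 4.34, 8.32, 12.8, 16.1 and 8.26 in Th1. Every Th1 library exceeded every other library. Ltbp3 was lower than in Th1 both in Tfh (log2 -3.95, SE 0.69, edgeR adjusted p = 0.000112) and in Th17 (-2.77, SE 0.62, 0.0017), the Tfh value resting on 26 counts and reaching -4.57 without Tfh replicate 4. Furin, the protease that cuts the TGF-β precursor, averaged 382 ± 97.3 CPM in Tfh libraries, 543 ± 148 in Th17 libraries and 632 ± 224 in Th1 libraries. It was lower in Tfh than in Th1 (log2 -0.73, SE 0.23, edgeR adjusted p = 0.0145) with overlapping libraries. Against Th17 its difference of -0.51 did not pass (0.153), but was called with a GC correction (-0.50, adjusted p = 0.00226, with 0.000108 to 0.373 over 25 alternatives). Its 3 highest values among the Tfh and Th17 libraries included Tfh replicate 4 and Th17 replicate 4, and the part of base composition in them was not tested. Ltbp4 stayed at or below 2.40 CPM in all 15 libraries and passed no comparison, although without Tfh replicate 2, its highest Tfh library, it was lower in Tfh than in Th1 (log2 -3.45, adjusted p = 0.00392, which ran from 0.00392 to 0.315 over 24 alternatives). Ltbp1 was not tested, with at most 1.09 CPM in any library.

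All 3 tested type II receptor genes had their highest level in Tfh and their lowest in Th1. Tgfbr2 (chromosome 9, 116087695 to 116175363), the receptor that binds TGF-β itself, had 356, 368, 349, 351 and 394 CPM in Tfh, 188, 235, 191, 186 and 194 in Th17, and 68.0, 69.2, 77.7, 75.9 and 67.0 in Th1. The 3 conditions formed separate bands with no overlap, and the spread within each was small. The log2 fold change was 0.87 (SE 0.10, edgeR adjusted p = 1.4e-05) for Tfh against Th17, 2.34 (SE 0.11, 3.3e-12) for Tfh against Th1 and 1.47 (SE 0.11, 2.61e-09) for Th17 against Th1, or 1.83-fold, 5.08-fold and 2.78-fold. Acvr2a (chromosome 2, 48814109 to 48903264), a receptor for activins, had 107, 196, 137, 86.5 and 113 CPM in Tfh, 52.4, 57.6, 33.1, 26.3 and 33.4 in Th17, and 6.59, 4.16, 1.78, 2.12 and 4.26 in Th1. Its conditions did not overlap either, and its folds exceeded those of the other type I and type II receptor genes tested among the members. On the log2 scale Acvr2a differed by 1.66 (SE 0.30, edgeR adjusted p = 0.000743) for Tfh against Th17, 5.14 (SE 0.36, 1.12e-09) for Tfh against Th1 and 3.48 (SE 0.34, 1.77e-07) for Th17 against Th1. Bmpr2, a receptor for bone morphogenetic proteins, had 32.3, 29.5, 31.6, 30.2 and 57.7 CPM in Tfh, 22.5, 25.7, 21.1, 14.4 and 19.7 in Th17, and 12.2, 12.7, 12.2, 15.3 and 18.2 in Th1. Tfh lay above both other conditions, Th17 and Th1 overlapped, and Tfh replicate 5 stood highest. Bmpr2 was higher in Tfh than in Th17 (log2 0.81, SE 0.21, edgeR adjusted p = 0.013) and than in Th1 (1.36, SE 0.22, 4.27e-05). The Th17 against Th1 difference of 0.55 did not pass (0.0548) but did without Th1 replicate 5, Th17 replicate 4 or Tfh replicate 5 (0.0346 to 0.0442). The second activin receptor gene, Acvr2b, was not tested: it had 8 counts over the Tfh libraries, 6 over Th17 and 36 over Th1.

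Of the 4 type I receptor genes among the members, Tgfbr1 and Acvr1b were called. The share called was 0%, 50% and 50% for Tfh against Th17, Tfh against Th1 and Th17 against Th1. Of all genes, 16.8%, 49.3% and 36.9% were called. Tgfbr1, the kinase that phosphorylates Smad2 and Smad3, had 164, 129, 133, 70.3 and 148 CPM in Tfh, 103, 90.7, 90.4, 53.6 and 86.8 in Th17, and 44.1, 35.6, 18.9, 19.9 and 30.4 in Th1. All Th1 libraries lay below all others, and Tfh and Th17 overlapped through Tfh replicate 4. Against Th1, Tgfbr1 was higher by log2 2.12 (SE 0.26, edgeR adjusted p = 1.87e-06) in Tfh and by 1.52 (SE 0.25, 0.000108) in Th17. For Tfh against Th17 it was 0.60 (SE 0.25, 0.113). The lowest value of each condition lay in 1 of the libraries with large positive GC correlations (Tfh 4, Th17 4, Th1 3), and the longest transcript of this gene holds 41.0% GC. The part of base composition in these low values was not tested. With the GC correction the Tfh against Th17 difference was 0.64 and was called (adjusted p = 0.00175; 0.000321 to 0.23 over 25 alternatives), as it was without Tfh replicate 4 (0.75, 0.0341). Acvr1b, which serves activin, had 20.1, 13.3, 11.7, 13.4 and 18.0 CPM in Tfh, 11.9, 11.1, 10.6, 14.4 and 11.9 in Th17, and 6.45, 8.99, 9.16, 8.03 and 5.02 in Th1. Both Tfh and Th17 lay above Th1 and overlapped with each other. It was higher in Tfh than in Th1 (log2 1.01, SE 0.22, edgeR adjusted p = 0.000908) and in Th17 than in Th1 (0.67, SE 0.22, 0.0229), the second of which was lost without Th1 replicate 5 or Th17 replicate 4 or 5 (0.0531 to 0.0832). Bmpr1a and Acvr1, which serve bone morphogenetic proteins, passed no comparison, at 47.9 ± 12.8 and 8.02 ± 2.66 CPM in Tfh, 51.4 ± 12.9 and 10.3 ± 2.0 in Th17, and 44.3 ± 17.9 and 6.47 ± 2.18 in Th1. Without Th1 replicate 1, Acvr1 was called higher in Th17 than in Th1 (log2 0.79, adjusted p = 0.043; 0.0179 to 0.187 over 25 alternatives).

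The co-receptor Tgfbr3 went against the type I and type II receptor genes called among the members. Outside the members, the type I receptor gene Acvr1c was also highest in Th1. It had 532 counts there, 9 over the Tfh libraries and 0 over Th17. Tgfbr3 (chromosome 5, 107106567 to 107289629) encodes betaglycan, which presents ligand to the type II receptor. It had 27.8, 38.3, 50.1, 48.1 and 41.1 CPM in Tfh, 60.8, 81.6, 65.9, 67.9 and 79.6 in Th17, and 104, 119, 139, 138 and 119 in Th1. The conditions did not overlap, and Tgfbr3 was the only one of the 36 called in all 3 comparisons with its lowest level in Tfh and its highest in Th1. Log2 fold changes were -0.79 (SE 0.16, edgeR adjusted p = 0.00167) for Tfh against Th17, -1.59 (SE 0.16, 1.41e-07) for Tfh against Th1 and -0.80 (SE 0.16, 0.000453) for Th17 against Th1. Eng, which encodes the co-receptor endoglin, averaged 16.5 ± 7.0 CPM in Tfh libraries, 17.3 ± 6.10 in Th17 libraries and 10.5 ± 5.88 in Th1 libraries (SD, n = 5 each) and passed no comparison, with its lowest value of 1.12 CPM in Th1 replicate 1.

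**Figure D2:**
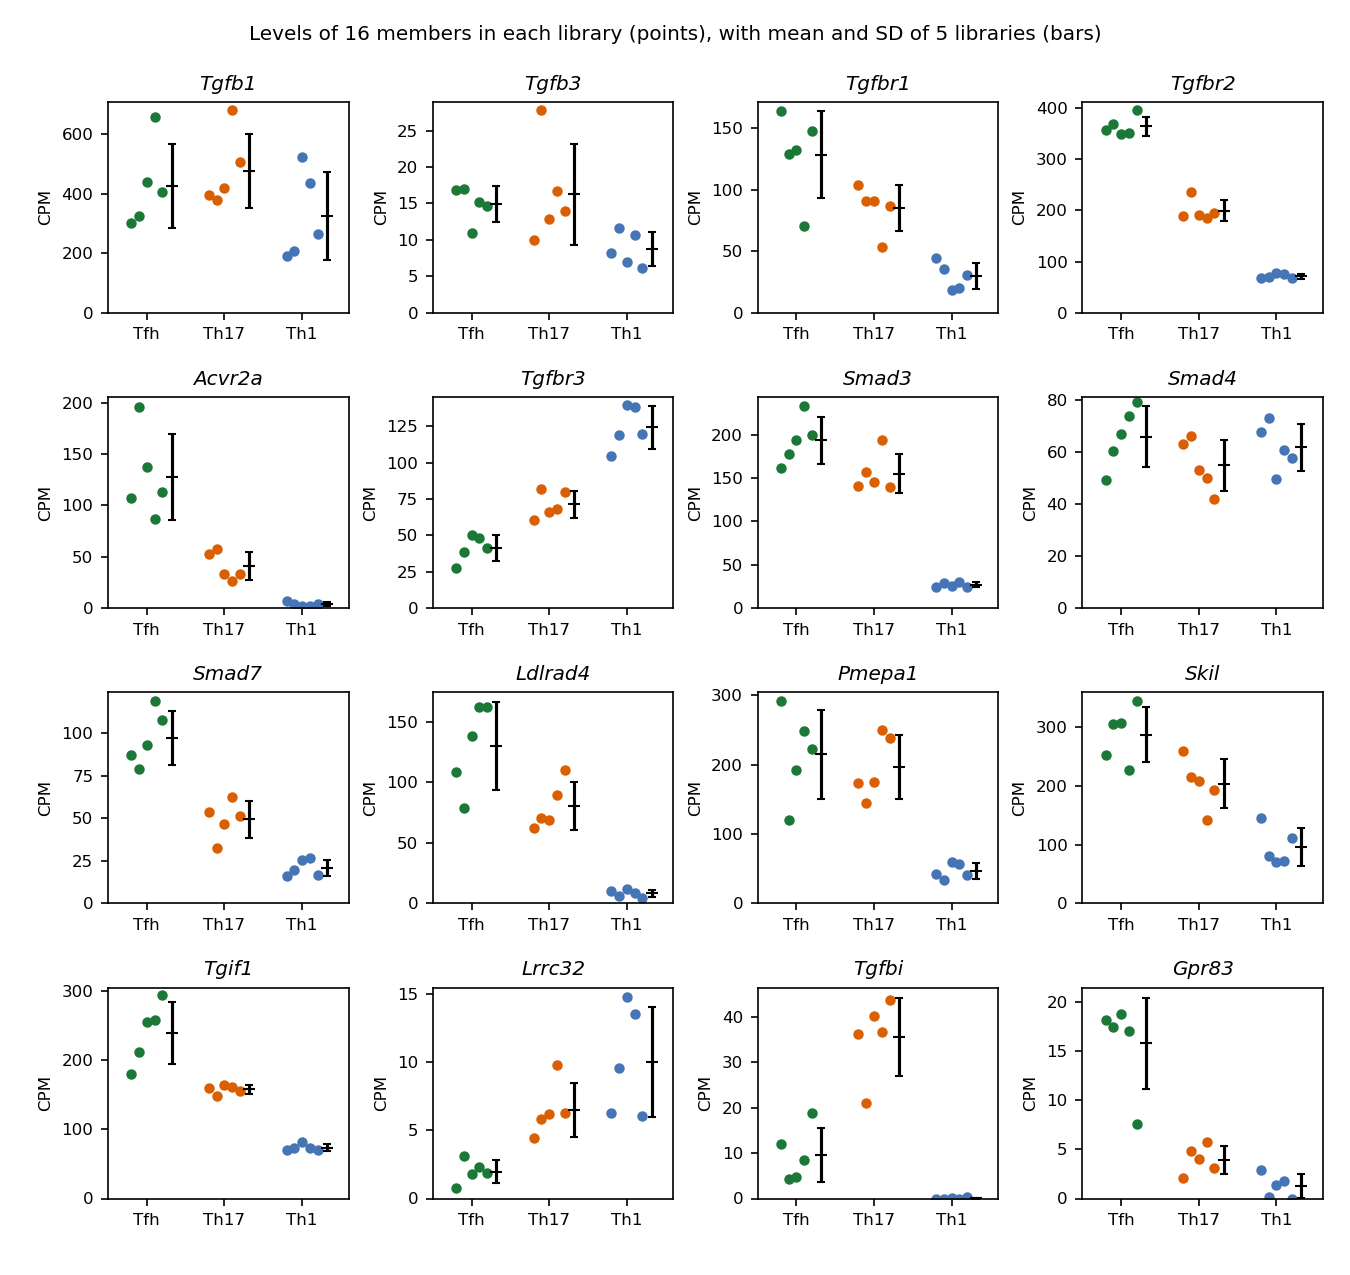
CPM of 16 members in each library (points, in replicate order) of Tfh, Th17 and Th1, on linear axes that start at 0, with the mean and SD of 5 libraries as bars. Tgfbr2, Acvr2a and Smad7 step down in 3 bands and Tgfbr3 steps up, Smad3, Ldlrad4 and Pmepa1 have Tfh and Th17 together above Th1, and Tgfb1 and Smad4 overlap throughout.

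Of the member Smads that carry the signal, Smad3 had the largest fold changes against Th1. Smad9, a bone morphogenetic protein Smad outside the members, was scarce and lay the other way. It had 0 counts over the Tfh libraries, 1 over Th17 and 118 over Th1 (1.84 CPM on average). Smad3 (chromosome 9, 63646766 to 63757994) had 162, 178, 195, 233 and 200 CPM in Tfh, 141, 157, 146, 194 and 139 in Th17, and 24.5, 28.9, 25.7, 30.6 and 24.2 in Th1. Tfh and Th17 overlapped, and the lowest Th17 library was far above the highest Th1 library. Against Th1, Smad3 was 7.23-fold higher in Tfh (log2 2.85, SE 0.14, edgeR adjusted p = 7.9e-12) and 5.79-fold higher in Th17 (2.53, SE 0.14, 5.68e-11). The Tfh against Th17 difference of 0.32 (95% interval 0.04 to 0.59) did not pass (0.109). It was called without Th17 replicate 4, the highest Th17 library (0.43, 0.0339), and 5 of 25 alternatives called it in all, with adjusted p from 0.00913 to 0.264. Smad2, the other TGF-β Smad, had 127, 153, 162, 119 and 128 CPM in Tfh, 125, 151, 134, 111 and 116 in Th17, and 84.4, 79.2, 68.4, 65.7 and 87.0 in Th1. Tfh and Th17 shared a range that lay above Th1. It was higher than in Th1 in Tfh (log2 0.84, SE 0.13, edgeR adjusted p = 3.74e-05) and in Th17 (0.73, SE 0.13, 0.000265). Smad5, a bone morphogenetic protein Smad, had 65.9, 67.9, 60.3, 56.5 and 68.4 CPM in Tfh, 57.4, 72.2, 50, 47.6 and 57.5 in Th17, and 47.8, 35.3, 28.9, 29.0 and 39.8 in Th1. Th17 replicate 4 and Th1 replicate 1 just overlapped, and Tfh lay clear of Th1. Its log2 fold changes against Th1 were 0.82 in Tfh (SE 0.16, edgeR adjusted p = 0.000316) and 0.66 in Th17 (SE 0.16, 0.00309). The changes of Smad2 and Smad5 were thus under 1.8-fold, where that of Smad3 was over 5-fold in both comparisons. Smad1 was called only between Tfh and Th17, at 34.3 ± 4.0 CPM in Tfh and 24.2 ± 2.30 in Th17 (log2 0.51, SE 0.15, edgeR adjusted p = 0.0237), with 28.2 ± 4.21 in Th1. That call was lost without Th17 replicate 1 or Tfh replicate 3 or 4 (0.0541 to 0.0694). Smad4, the partner that all of them share, was 65.9 ± 11.7, 54.9 ± 9.82 and 61.7 ± 8.99 CPM in Tfh, Th17 and Th1 and passed no comparison, with intervals of the log2 difference from -0.07 to 0.61, from -0.24 to 0.44 and from -0.51 to 0.17 for Tfh against Th17, Tfh against Th1 and Th17 against Th1.

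Of the adaptors, Tgfbrap1, which binds the TGF-β receptors and Smad4, had 49.7, 56.2, 69.4, 76.5 and 72.1 CPM in Tfh, 39.3, 48.4, 47.9, 50.6 and 50.8 in Th17, and 32.5, 28.6, 32.0, 32.5 and 29.5 in Th1. Th1 lay below both other conditions, and Tfh replicate 1 fell within the Th17 range. It was called in all 3 comparisons, with log2 fold changes of 0.45 (SE 0.14, edgeR adjusted p = 0.0308) for Tfh against Th17, 1.06 (SE 0.14, 4.53e-06) for Tfh against Th1 and 0.61 (SE 0.14, 0.00193) for Th17 against Th1. The first is insecure: it was lost without Th17 replicate 1, 2 or 3 or Tfh replicate 3, 4 or 5 (adjusted p 0.0538 to 0.0912). Zfyve9 (SARA), which brings Smad2 and Smad3 to the receptor, stayed at or below 1.88 CPM in all libraries and passed no comparison.

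Per kilobase of exon, levels of the different genes can be set beside each other. In Tfh the type II receptors ranked Tgfbr2 (44.4 CPM per kilobase), Acvr2a (22.5) and Bmpr2 (2.02), and in Th17 likewise Tgfbr2 (24.3), Acvr2a (7.13) and Bmpr2 (1.15). In Th1 Tgfbr2 (8.74) was followed by Bmpr2 (0.79) and Acvr2a (0.66), which overlap within their SD. Among the Smads, Smad3 led in Tfh with 34.9 and in Th17 with 28.0 CPM per kilobase, ahead of Smad4 with 17.8 and 14.8. In Th1 Smad4 led with 16.6, then Smad2 with 8.76, and Smad5, Smad3 and Smad1 lay close together at 4.87, 4.83 and 4.51. The order of those last 3 depends on whether the exon union or the longest transcript is taken as the length. Tgfbr1 led the type I receptors in Tfh and Th17 with 19.7 and 13.0, where Bmpr1a had 7.54 and 8.10, and in Th1 Bmpr1a (6.98) stood above Tgfbr1 (4.56), within their SD.

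**Figure D3:**
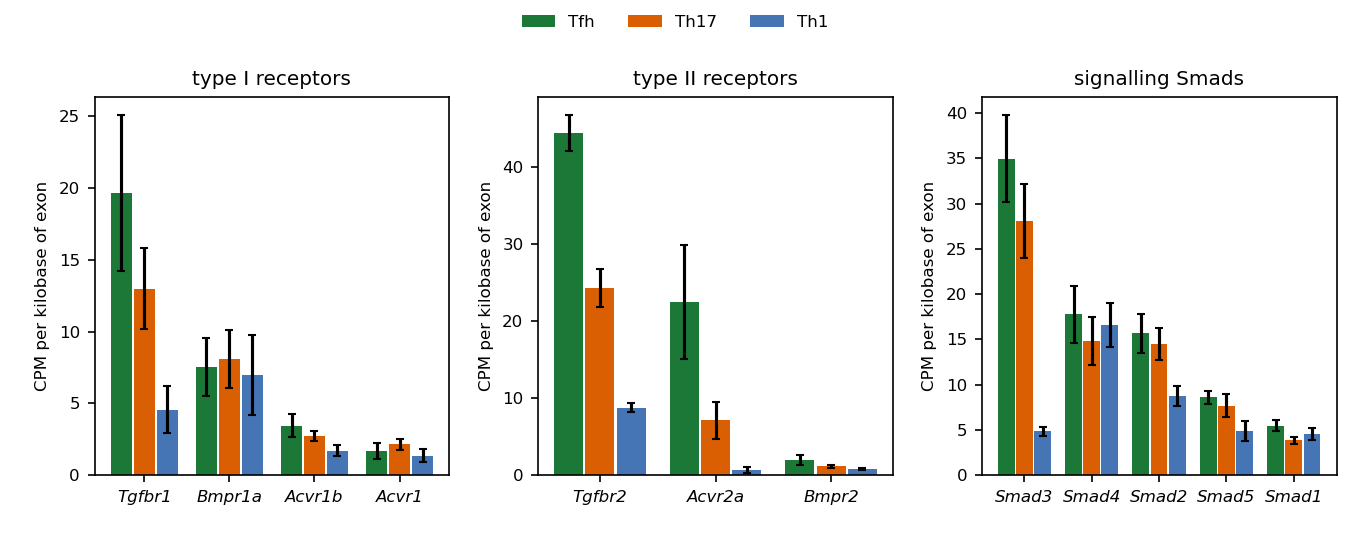
Mean CPM per kilobase of exon (bars, from 0) with SD of 5 libraries for type I receptors, type II receptors and signalling Smads in Tfh, Th17 and Th1. Smad3 is the tallest Smad in Tfh (34.9) and Th17 (28.0), while in Th1 Smad4 (16.6) is.

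Of the 12 inhibitor genes, 8 were called higher in Tfh than in Th1 and 6 higher in Th17 than in Th1, and none was called lower. These are 66.7% and 50%, where 24.1% and 19% of all genes were called higher and 25.2% and 17.8% lower. Smad7, the inhibitory Smad that blocks the TGF-β receptor and is a direct target of the signal, had 87.6, 79.4, 93.5, 119 and 108 CPM in Tfh, 53.9, 32.3, 46.7, 62.4 and 51.6 in Th17, and 16.3, 19.3, 25.2, 26.8 and 16.7 in Th1. The 3 conditions did not overlap. The log2 fold change was 0.98 (SE 0.19, edgeR adjusted p = 0.00125) for Tfh against Th17, 2.22 (SE 0.20, 2.84e-08) for Tfh against Th1 and 1.24 (SE 0.19, 4.67e-05) for Th17 against Th1. Its relative Smad6, which acts mainly on bone morphogenetic protein signals, was scarce, at 2.18 ± 1.49, 1.22 ± 0.509 and 0.479 ± 0.345 CPM in Tfh, Th17 and Th1. It was called higher in Tfh than in Th1 (log2 2.24, SE 0.73, edgeR adjusted p = 0.0162) with overlap, a call lost without Tfh replicate 5 (0.0536).

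Ldlrad4 and Pmepa1, membrane proteins that keep Smad2 and Smad3 from the receptor and are induced by TGF-β, had among the largest folds of the inhibitors against Th1. Ldlrad4 had 108, 78.5, 138, 162 and 162 CPM in Tfh, 62.4, 70.2, 68.6, 89.4 and 110 in Th17, and 10.1, 5.90, 11.7, 8.86 and 4.68 in Th1. Every Tfh and Th17 library was above every Th1 library, and Tfh and Th17 overlapped. Log2 fold changes were 3.97 (SE 0.27, edgeR adjusted p = 1.01e-09) for Tfh against Th1 and 3.27 (SE 0.27, 1.54e-08) for Th17 against Th1. For Tfh against Th17 it was 0.70 (95% interval 0.19 to 1.20, adjusted p = 0.055), and 13 of 25 alternatives called it, with adjusted p from 0.0209 to 0.134. Among those 13 were the fits without Th1 replicate 1, 3 or 5, Th17 replicate 5 or Tfh replicate 2 (log2 0.69 to 0.85). Of the annotated exon bases of Ldlrad4, 52.1% lie opposite exons of Fam210a, and the strand setting of the counting is not given, so reads of the pair cannot be told apart. Fam210a itself had log2 fold changes of 0.58 for Tfh against Th17, 0.98 for Tfh against Th1 and 0.40 for Th17 against Th1 (edgeR adjusted p = 0.0415, 0.00032 and 0.112). Pmepa1 had 291, 121, 192, 248 and 222 CPM in Tfh, 173, 145, 174, 250 and 239 in Th17, and 41.8, 33.2, 59.0, 57.2 and 41.0 in Th1. Tfh and Th17 spanned similar ranges, both clear of Th1. The log2 fold change was 2.21 (SE 0.23, edgeR adjusted p = 2.38e-07) for Tfh against Th1 and 2.08 (SE 0.23, 7.56e-07) for Th17 against Th1, and 0.13 (95% interval -0.33 to 0.59) for Tfh against Th17. Bambi, a decoy receptor that lacks the kinase, stayed at or below 4.49 CPM and passed no comparison.

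The nuclear corepressors Ski, Skil and Tgif1, which bind Smad complexes and silence their targets, were all higher than in Th1. Ski had 402, 390, 381, 480 and 403 CPM in Tfh, 389, 366, 399, 489 and 427 in Th17, and 193, 193, 263, 234 and 198 in Th1. Tfh and Th17 shared a range above that of Th1. Its log2 fold changes were 0.93 (SE 0.12, edgeR adjusted p = 4.49e-06) for Tfh against Th1 and 0.94 (SE 0.12, 6.44e-06) for Th17 against Th1. Between Tfh and Th17 the Ski difference was -0.01, with a 95% interval of -0.26 to 0.24. Skil had 252, 305, 307, 227 and 345 CPM in Tfh, 260, 215, 208, 142 and 194 in Th17, and 145, 80.3, 70.6, 72.1 and 111 in Th1. Tfh lay wholly above Th1, Th17 overlapped with Th1 through Th17 replicate 4 and Th1 replicate 1, and Tfh overlapped with Th17. For Skil the log2 fold change was 1.59 (SE 0.20, edgeR adjusted p = 3.58e-06) for Tfh against Th1 and 1.09 (SE 0.20, 0.000306) for Th17 against Th1. Its Tfh against Th17 difference of 0.50 did not pass (0.102) but was called with the GC correction (0.55, 0.000287; 2.9e-05 to 0.201 over 25 alternatives) and without Th1 replicate 1 (0.49, 0.0458). Tgif1 had 180, 211, 255, 258 and 294 CPM in Tfh, 160, 149, 164, 161 and 155 in Th17, and 70.2, 72.3, 82.2, 72.9 and 69.6 in Th1. The bands did not overlap. The log2 fold change was 0.60 (SE 0.13, edgeR adjusted p = 0.00254) for Tfh against Th17, 1.71 (SE 0.13, 3.15e-09) for Tfh against Th1 and 1.10 (SE 0.13, 1.45e-06) for Th17 against Th1. Tgif2, the relative of Tgif1, passed no comparison at 14.7 ± 4.68, 14 ± 1.78 and 16 ± 5.55 CPM, and 56.7% of its exon bases lie opposite another annotated gene.

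Of the 3 member genes for ubiquitin ligases that mark receptors and Smads for degradation (Smurf1, Smurf2 and Nedd4l), Smurf2 alone was called. Its single call, for Tfh against Th1, is 33.3% of the 3, where 49.3% of all genes were called. Smurf2 averaged 64.3 ± 11.2, 59.0 ± 6.55 and 45.4 ± 9.61 CPM in Tfh, Th17 and Th1 and was higher in Tfh than in Th1 (log2 0.51, SE 0.16, edgeR adjusted p = 0.0157) with overlap. That call was lost without Th1 replicate 4 or 5 or Tfh replicate 2 or 5 (0.0502 to 0.0646), and the Th17 against Th1 difference of 0.38 (0.0783) was called without Th1 replicate 1 or Tfh replicate 1 (0.0202 and 0.0446). Smurf1 was 40.6 ± 6.96, 34.3 ± 3.39 and 32.9 ± 9.62 CPM and Nedd4l 13.9 ± 2.29, 12.5 ± 2.50 and 14.9 ± 3.33, with no call.

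**Figure D4:**
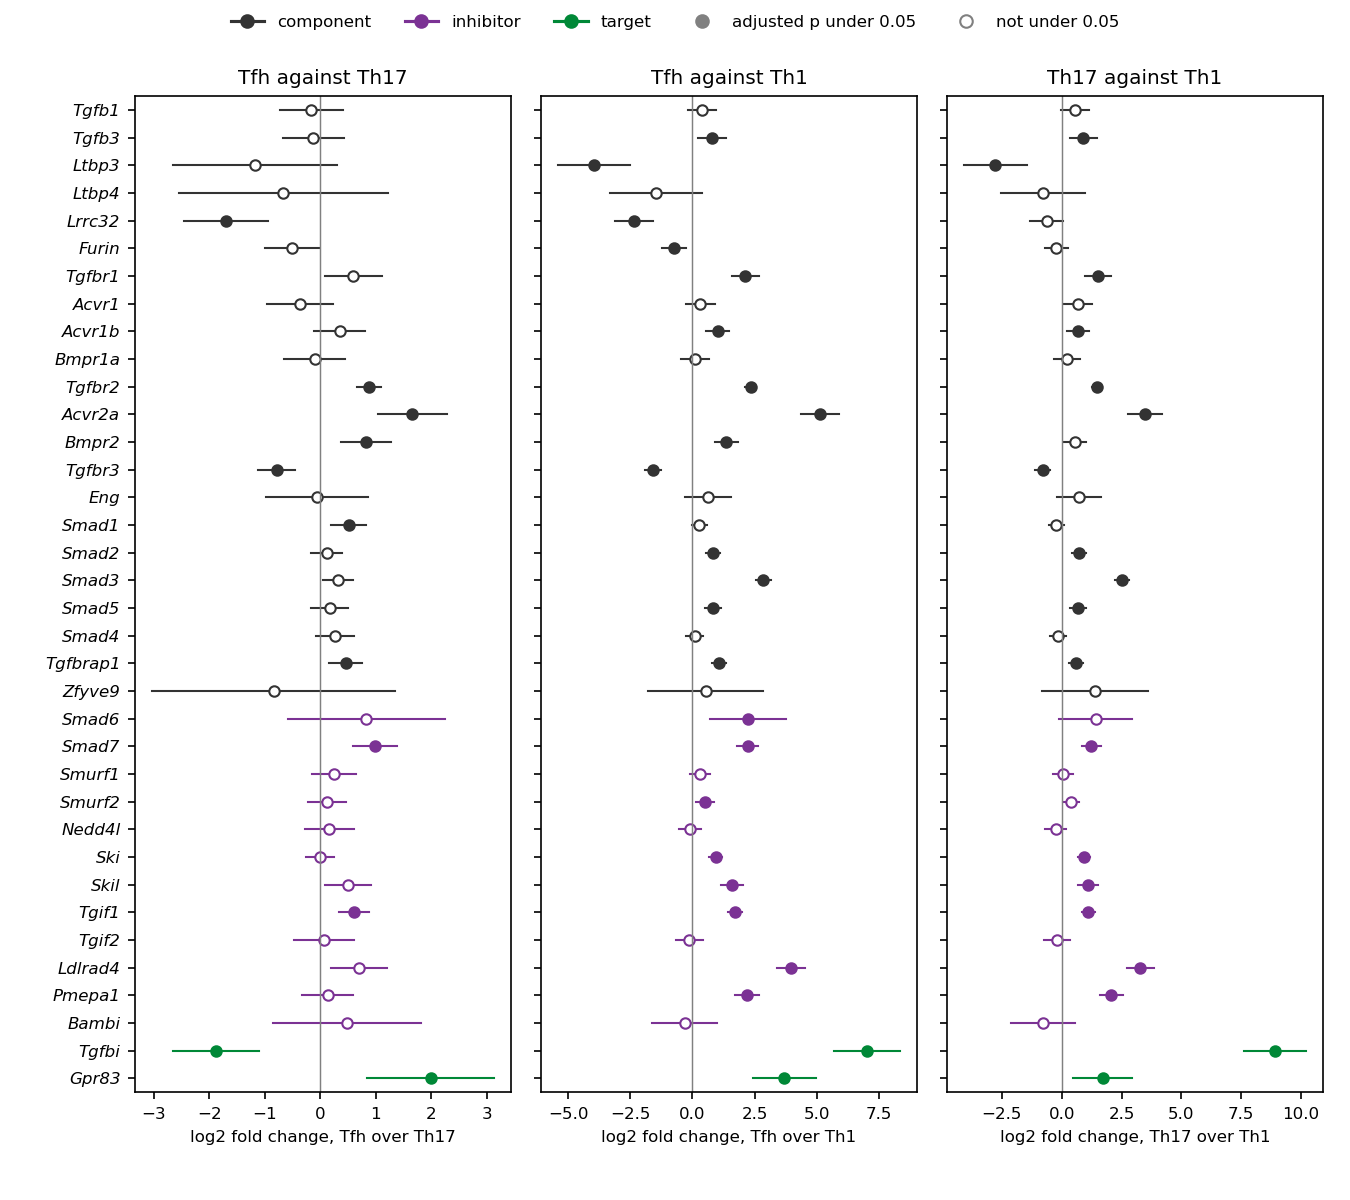
Log2 fold changes (points) with 95% intervals (lines) of the 36 members tested for Tfh against Th17, Tfh against Th1 and Th17 against Th1. Filled points had an edgeR adjusted p under 0.05, colours mark components, inhibitors and targets, and the horizontal scale differs between panels. No filled inhibitor lies left of 0, and Tgfbi lies left of 0 only in the first panel, at -1.88.

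The 2 target genes parted Tfh from Th17 in opposite directions. Tgfbi (chromosome 13, 56609586 to 56639359), a secreted matrix protein induced by TGF-β, had 12.0, 4.38, 4.66, 8.46 and 18.8 CPM in Tfh, 36.2, 21.1, 40.2, 36.8 and 43.7 in Th17, and 0, 0, 0.0424, 0 and 0.255 in Th1. All Th17 libraries were above all Tfh libraries, and Th1 libraries held 4 counts in all. Tgfbi was lower in Tfh than in Th17 (log2 -1.88, SE 0.37, edgeR adjusted p = 0.00156) and higher than in Th1 in both Tfh (7.01, SE 0.63, 3.91e-08) and Th17 (8.90, SE 0.62, 1.74e-09). The fitted folds against Th1 rest on those 4 counts, and without Th1 replicate 5 they were 8.28 and 10.15. Gpr83 (chromosome 9, 14859880 to 14870789), a receptor gene known as a regulatory T cell marker, had 18.2, 17.5, 18.8, 17.0 and 7.61 CPM in Tfh, 2.11, 4.87, 3.99, 5.75 and 3.14 in Th17, and 2.94, 0.193, 1.40, 1.75 and 0 in Th1. Tfh lay above both other conditions, which overlapped. For Gpr83 the log2 fold change was 1.99 (SE 0.54, edgeR adjusted p = 0.0162) for Tfh against Th17, 3.70 (SE 0.60, 5.11e-05) for Tfh against Th1 and 1.71 (SE 0.59, 0.0288) for Th17 against Th1. The last of these was lost without Th1 replicate 2 or Th17 replicate 2, 3 or 4 (0.0526 to 0.0672), and with Th17 and Th1 fitted on their own (0.0803).

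Other genes of the pathway were taken from lists of textbook members, also chosen with earlier results of these data known. For each list the share called is given in the order Tfh against Th17, Tfh against Th1 and Th17 against Th1, beside the share over all genes tested, which was 16.8%, 49.3% and 36.9%. Of 30 further genes in a list of ligands and ligand traps, only 6 had enough counts to be tested. The list also held Bmp1, which is neither, and the counts include it. Of the 6, 1 was higher in Tfh than in Th17, and 3 were higher and 2 lower in Tfh than in Th1. Between Th17 and Th1, 2 were higher and 1 lower in Th17 (16.7%, 83.3% and 50% called). Bmp1, a metalloproteinase that cleaves procollagen and latent TGF-β binding proteins, averaged 20.1 ± 8.90 CPM in Tfh libraries, 15.8 ± 4.26 in Th17 libraries and 3.65 ± 0.879 in Th1 libraries. It was higher than in Th1 in Tfh (log2 2.44, SE 0.34, edgeR adjusted p = 9.39e-06) and in Th17 (2.09, SE 0.34, 7.25e-05). Of 11 tested genes for storage and release of latent TGF-β, 1 was higher and 1 lower in Tfh than in Th17, 2 higher and 4 lower in Tfh than in Th1, and 2 higher and 3 lower in Th17 than in Th1 (18.2%, 54.5% and 45.5%, against 16.8%, 49.3% and 36.9% of all genes). Itgb1, an integrin chain, was lower in Tfh (104 ± 12.2 CPM) than in Th17 (169 ± 20.4; log2 -0.69, edgeR adjusted p = 0.00275) and than in Th1 (186 ± 37.2; -0.83, 0.000119). Itgav, whose product pairs with other chains to release TGF-β, was lower in Th17 (62.9 ± 13.8 CPM) than in Th1 (136 ± 37.5; -1.11, 0.000486). Thbs1, which encodes thrombospondin and can release latent TGF-β, had 22.0 ± 13.3 CPM in Tfh and 7.44 ± 2.27 in Th17 against 6 counts over all Th1 libraries.

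Of 9 tested genes for other receptors and receptor-proximal factors, none was called higher and 2 lower in Tfh than in Th17, 3 were higher and 2 lower in Tfh than in Th1, and 3 were higher and 2 lower in Th17 than in Th1. Called shares were 22.2%, 55.6% and 55.6%, against 16.8%, 49.3% and 36.9% of all genes. Acvrl1, the type I receptor ALK1, averaged 19.5 ± 4.36 CPM in Tfh libraries, 19.7 ± 6.48 in Th17 libraries and 2.95 ± 1.33 in Th1 libraries, a log2 fold change against Th1 of 2.69 in Tfh (SE 0.33, edgeR adjusted p = 1.92e-06) and 2.7 in Th17 (SE 0.33, 2.92e-06). Dab2, an endocytic adaptor, was highest in Th17, with 2.06 ± 1.17 CPM in Tfh, 22.5 ± 2.73 in Th17 and 1 count over all Th1 libraries (Tfh against Th17 log2 -3.45, SE 0.37, edgeR adjusted p = 5.07e-06). Fkbp1a, whose product holds type I receptors inactive, was lower in Tfh (963 ± 60.5 CPM) than in Th17 (1509 ± 56.3; log2 -0.65, edgeR adjusted p = 0.000137) and than in Th1 (1275 ± 109; -0.40, 0.00195). A list of Smad cofactors, which also held the signalling Smad gene Smad9, had 22 genes tested. Of these, 1 was higher and 4 lower in Tfh than in Th17. Against Th1, 11 were higher and 4 lower in Tfh, and 10 higher and 4 lower in Th17 (22.7%, 68.2% and 63.6% called). Runx1 averaged 155 ± 24.0 CPM in Tfh libraries, 128 ± 10.5 in Th17 libraries and 52.6 ± 7.69 in Th1 libraries, and Runx3 ran the other way, at 72.0 ± 19.5, 127 ± 33.3 and 321 ± 130. Zeb2, which encodes a repressor that binds Smads, was 1.62 ± 1.08, 5.68 ± 2.41 and 39 ± 10.8 CPM, and Cited2, a coactivator gene, 142 ± 31.3, 138 ± 25.3 and 30.7 ± 5.78. Each of these differences from Th1 passed the test.

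Of 21 genes for ubiquitin and phosphatase control, 4 were higher and 2 lower in Tfh than in Th17, 7 higher and 2 lower in Tfh than in Th1, and 3 higher and 2 lower in Th17 than in Th1. Called shares were 28.6%, 42.9% and 23.8%, against 16.8%, 49.3% and 36.9% of all genes, so that both comparisons with Th1 lay below the background. The ligase gene Wwp2 averaged 172 ± 21.2 CPM in Tfh libraries, 115 ± 24.1 in Th17 libraries and 40.2 ± 7.81 in Th1 libraries, whereas its family member Nedd4 averaged 48.7 ± 14.1, 78.5 ± 7.54 and 211 ± 17.6, and all 3 comparisons of each were called. Rnf111, which encodes a ligase for Ski, Skil and Smad7 proteins, was higher in Tfh (133 ± 23.9 CPM) than in Th1 (78.8 ± 7.29; log2 0.76, edgeR adjusted p = 0.00022). The non-Smad branch (15 genes) had 1, 4 and 3 genes higher and 1 lower in each of the 3 comparisons, and its called shares of 13.3%, 33.3% and 26.7% lay below those of all genes. There the kinase genes Mapk14 (182 ± 6.0 CPM in Tfh, 193 ± 8.89 in Th17, 84.4 ± 5.57 in Th1) and Mapk8 (75.4 ± 13.3, 62.2 ± 11.7 and 24.0 ± 5.79) were higher than in Th1 in both other conditions, and Map3k7, the TAK1 kinase, was higher in Tfh (248 ± 36.7 CPM) than in Th17 (181 ± 8.0; log2 0.46, edgeR adjusted p = 0.0176).

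Genes known to answer to TGF-β were called in both directions. Of all genes tested, 6.8%, 24.1% and 19% were called higher and 9.98%, 25.2% and 17.8% lower in Tfh against Th17, Tfh against Th1 and Th17 against Th1. Of 25 tested genes raised by TGF-β in T cells or in other cells, 9 were higher and 9 lower in Tfh than in Th17 (median log2 0.59), 12 higher and 8 lower in Tfh than in Th1 (0.51), and 16 higher and 6 lower in Th17 than in Th1 (1.52), with 72%, 80% and 88% called in all. Cd101 was among those higher than in Th1, at 184 ± 27.8 CPM in Tfh libraries, 118 ± 10.6 in Th17 libraries and 2.26 ± 0.992 in Th1 libraries. Others ran the opposite way: Timp1, a protease inhibitor gene, averaged 108 ± 23.2, 490 ± 55.2 and 1172 ± 289 CPM in Tfh, Th17 and Th1, and Cdkn1a, a cell cycle inhibitor gene, was 31.8 ± 6.51, 94.0 ± 20.3 and 508 ± 117. Tsc22d1 and Sox4, transcription regulators, were higher in Tfh than in Th17, at 147 ± 12.7 against 42.2 ± 5.70 CPM (log2 1.80, edgeR adjusted p = 3.78e-07) and 152 ± 41.7 against 37.9 ± 13 (2.0, 0.000122). Of 19 tested genes lowered by TGF-β in T cells, 3 were higher and 5 lower in Tfh than in Th17 (median log2 -0.05), 4 higher and 14 lower in Tfh than in Th1 (-1.83), and 4 higher and 13 lower in Th17 than in Th1 (-1.22), with 42.1%, 94.7% and 89.5% called in all. The cytotoxic genes Gzmb and Fasl were among the lower ones, with Gzmb at 1.63 ± 2.09 CPM in Tfh libraries, 0.620 ± 0.478 in Th17 libraries and 438 ± 16 in Th1 libraries. Exceptions with higher levels than in Th1 were Id2, at 342 ± 99.0, 424 ± 33.6 and 60.9 ± 16 CPM, and Klf2, at 95.2 ± 17.5, 25.0 ± 3.93 and 1.77 ± 0.795. Both lists were chosen with earlier results of these data known, so their shares are descriptive only. Both hold genes that also belong to the Th1, Th17 or Tfh programmes, and the Th1 cells were sorted for 1 of them, Ifng. The part of TGF-β in these counts was not tested.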

How the data were processed

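Raw counts per Entrez gene were deposited for 15 libraries, as a series table and as 15 single files with identical values. Per the submitters' processing notes, the authors aligned reads with STAR 2.7.2b to mm10 and counted them with featureCounts 1.6.4. The sources used here state no annotation, strand setting or handling of multi-mapping reads, so overlapping genes are uncertain. Per the labels' protocols, 100 ng of RNA went into each Lexogen SENSE library. Gene names came from RefSeq (25275 IDs) and GENCODE (17), and 1887 IDs had none; all 39 members matched. The members and all gene lists were chosen with earlier results of these data known.

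The test was edgeR 4.0.16 under R 4.3.3 (quasi-likelihood, TMM scaling, 1 model over the 3 conditions without covariates). The default filter left 12591 genes and removed 5472 others with a count. Calls had an adjusted p (Benjamini-Hochberg, over the 12591 genes) under 0.05. SE and 95% intervals come from the F statistic, and CPM from TMM-scaled totals. Single libraries resolve 3 counts as 0.127 CPM at the deepest and 0.58 at the shallowest, counting error only. The scripts were tested on simulated data. Alternatives were RLE factors, total counts, no filter or a stricter one, DESeq2 1.42.0, limma-voom 3.58.1, 2 conditions only, a GC correction, a block on replicate number, and each library left out. Members in full are those called in at least 2 comparisons with 10 CPM or more in 1 condition; from lists, up to 3 per direction and comparison that were called without overlap at 10 CPM or more, of which a selection is printed. Tgfb1 and Ltbp3 were added per library after their values were seen, and the summed counts of Smad9 and Acvr1c likewise. Libraries of a condition differed beyond counting noise (lowest chi-square per gene 9.4).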

Additional observations from a re-analysis of the deposited data

Results flagged for a closer look

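In 108 sets of 5 libraries (36 members in 3 conditions), 9 had 1 library separated from the nearest other by more than Dixon's 95% limit of 0.71 of the range, where chance alone marks about 1 in 20, or 5 of 108. In Tfh, replicate 4 was highest for Furin (551 CPM, the others 302 to 362) and Ski (480, the others 381 to 403), and replicate 5 was highest for Bmpr2 (57.7, the others 29.5 to 32.3) and lowest for Gpr83 (7.61, the others 17.0 to 18.8). Tfh replicate 2 was highest for Ltbp4 (2.40 CPM, the others at most 0.296). In Th17, replicate 2 was highest for Tgfbr2 (235 CPM, the others 186 to 194) and replicate 1 lowest for Tgfbrap1 (39.3, the others 47.9 to 50.8). In Th1, replicate 3 was highest for Tgif1 (82.2 CPM, the others 69.6 to 72.9) and replicate 5 for Tgfbi (0.255, the others at most 0.0424).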

How the results depend on the processing

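Of 2680 fold changes of members under 25 alternatives (15 of them leaving out 1 library), 2599 kept their side of the threshold, among them 36 called under neither setting whose sign changed, 52 gained a call, 29 lost one, and none that was called changed sign. Of 54 called differences, 46 were called under every alternative. Leaving out 1 library gave 6 to 10 members higher and 3 lower in Tfh than in Th17, 18 to 20 and 4 to 5 against Th1, and 15 to 19 and 2 for Th17 against Th1. Over all genes, Tfh against Th17 gave 856 higher and 1257 lower, 1698 higher with the GC correction, and 1955 higher and 1984 lower with the replicate block and GC correction together; the GC correction moved the share of calls that were higher to 50.1% from 40.5%. Same-numbered libraries were alike for some numbers only. Their deviations correlated at -0.126 to 0.648 (median 0.0865), over 0.1 in 7 of 15 pairs, and those of differently numbered libraries at -0.601 to 0.685 (median -0.027). Pairs of number 4 lay at 0.525 to 0.648 and pairs of number 2 at 0.182 to 0.301. Of 30 checks, each among the 5 libraries of another condition, 13 matched best to the own number, where random matching gives 1 in 5. The labels do not say what a number stands for. With the replicate block, 12 members were higher and 4 lower in Tfh than in Th17, 21 and 4 in Tfh than in Th1, and 20 and 2 in Th17 than in Th1. Depth limits Tgfb2, Ltbp1 and Acvr2b, and levels near 1 CPM.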
